A study of Homo sapiens with 51 samples.

Results

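After 72 h of growth factor treatment, H1 human embryonic stem cells that received BMP4 alone were compared with cells that received Activin together with BMP4. The comparison used the 6 RNA-seq libraries that the labels assign to these conditions at this time, 3 for each, out of 51 libraries in the series. H1 is an established line of embryonic stem cells from a human blastocyst. In the BMP4 group the cells had BMP4 at 50 ng/mL and no Activin, and in the Activin+BMP4 group they had Activin at 100 ng/mL and BMP4 at 10 ng/mL. The groups therefore differed in Activin and in the BMP4 dose at once, and the share of each in a difference cannot be told apart. During treatment both groups were in TeSR E5 medium with insulin, FGF2 and an additive that the labels spell LY29004. The other libraries were untreated cells in the maintenance medium mTeSR1 (3 libraries, 0 h) and the same conditions at 7 other times. All results are from this single line. The 3 samples of a group carry repeat numbers, and the labels do not say whether these were separate cultures. The p-values therefore measure only the spread between samples of the same group, which may be technical. That spread was estimated over all 51 libraries and not from the 72 h samples alone.

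Activin binds the receptors that NODAL uses and signals through SMAD2 and SMAD3, while BMP4 signals through SMAD1 and SMAD5. In the gastrulating embryo, high NODAL signalling is associated with the anterior primitive streak and the definitive endoderm that leaves it. BMP signalling is associated with the posterior streak, lateral and extraembryonic mesoderm, and the amnion, an epithelium that forms beside the embryo proper. The primitive streak itself is the region where epiblast cells, which resemble embryonic stem cells, become mesoderm and endoderm.

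The 6 libraries held 22.8 M to 28.8 M counts, against 22.8 M to 30.4 M over the series. Levels are given as CPM, the counts of a gene scaled to a common library total, and differences as log2 fold changes of BMP4 over Activin+BMP4 with a standard error (SE), so that a positive value is higher with BMP4. Log CPM values correlated at 0.985 to 0.9879 between libraries of the same group and at 0.9592 to 0.9636 between groups, across genes, and no libraries agreed within sampling noise. Within the BMP4 group replicate 1 stood farther from the others: a chi-square per degree of freedom of 18.5 and 19.0 against replicates 2 and 3, and 8.85 between those. Mitochondrially encoded genes took 0.607% to 1.38% of the counts, with the highest value in BMP4 replicate 1. In the same conditions this share was 1.4% to 3.01% at 48 h and 0.77% to 1.8% at 96 h. Its part in the changes between these times was not tested. Genes were called that passed edgeR's quasi-likelihood test at 0.05, adjusted by Benjamini and Hochberg, with levels at least 2-fold apart. Of 19603 genes tested 1955 were called (9.97%), 1020 higher with BMP4 (5.2%) and 935 lower (4.77%). The 3 libraries of one group lay wholly above or below those of the other for 43.2% of the genes tested. In these bulk samples a lower level can come from fewer cells of a type or from less RNA per cell, and these cannot be told apart.

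At this time the BMP4 libraries held higher RNA levels of amnion genes, CDX and HOX genes and several mesoderm regulators than the Activin+BMP4 libraries. The Activin+BMP4 libraries held higher levels of many definitive endoderm genes and NODAL pathway genes. Pluripotency genes such as POU5F1 were present in both, and 21 of 23 tested were not called. CDX2 and HNF4A are transcription factors from either side of this contrast. CDX2, a homeodomain factor of trophoblast, amnion and posterior embryo, was measured at 15.4, 14.4 and 15.3 CPM with BMP4 and at 0.0442, 0 and 0.115 CPM with Activin+BMP4. HNF4A, a nuclear receptor of visceral endoderm and liver, was measured at 0.0343, 0.0748 and 0.119 CPM with BMP4 and at 15.6, 16.0 and 12.0 CPM with Activin+BMP4. For both genes the groups were far apart, with a log2 fold change of 7.98 (SE 0.31, edgeR adjusted p = 3.1e-25) for CDX2 and of -7.52 (SE 0.32, edgeR adjusted p = 2.35e-27) for HNF4A. Only 4 counts lay behind the CDX2 level with Activin+BMP4 and 6 behind the HNF4A level with BMP4.

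A single promoter window of each of these 2 genes is shown because their RNA moved in opposite directions. The counts are per gene and do not tell which start site was used. Each window runs 5′ to 3′ on the strand of the gene, from 250 bases before to 50 bases after a RefSeq start site in build GRCh38.p14. The CDX2 window is chr13:27969266-27969565 on the minus strand, and the HNF4A window is chr20:44355449-44355748 on the plus strand. Capitals mark matches on either strand to AGATAA, a core bound by GATA factors, and to TGTTTAC, a core bound by FOXA factors.
CDX2: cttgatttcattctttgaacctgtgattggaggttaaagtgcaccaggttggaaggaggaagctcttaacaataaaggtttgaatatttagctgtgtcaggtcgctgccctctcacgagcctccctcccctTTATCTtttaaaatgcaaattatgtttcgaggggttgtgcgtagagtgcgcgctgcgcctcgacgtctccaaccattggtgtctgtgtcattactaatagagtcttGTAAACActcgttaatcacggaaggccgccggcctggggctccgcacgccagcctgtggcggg
HNF4A: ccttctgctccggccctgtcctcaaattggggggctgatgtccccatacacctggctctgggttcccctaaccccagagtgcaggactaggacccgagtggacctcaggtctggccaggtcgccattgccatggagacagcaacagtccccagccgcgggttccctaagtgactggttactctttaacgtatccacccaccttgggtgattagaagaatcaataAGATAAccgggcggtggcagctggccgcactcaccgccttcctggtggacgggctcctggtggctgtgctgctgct
The CDX2 window held 1 match to each core, both on the reverse strand, at bases 132 and 238 as printed, and the HNF4A window held 1 match to the GATA core at base 225. Over all genes tested 13137 had a promoter of this length in the RefSeq table, and AGATAA was present in 5.6% of them. It was present in 10.2% of the 665 promoters of genes called higher with BMP4 and in 9.3% of the 561 promoters of genes called lower. TGTTTAC was present in 2.4% of all, 2.7% of the higher and 4.3% of the lower set. Another 4 cores were searched the same way. GGAATG, a TEAD core, was present in 10.9%, 12.8% and 12.7% of these sets, ATCAAAG, a TCF and LEF core, in 1.5%, 1.1% and 1.1%, TTTATGG, a core of CDX and posterior HOX factors, in 1.4%, 2.1% and 2.5%, and GGCGCC, a core bound by SMAD1 and SMAD5, in 29.4%, 23.6% and 21.9%. These shares describe letters in the windows and were not tested, and no overlap between the cores was removed.

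**Figure D1:**
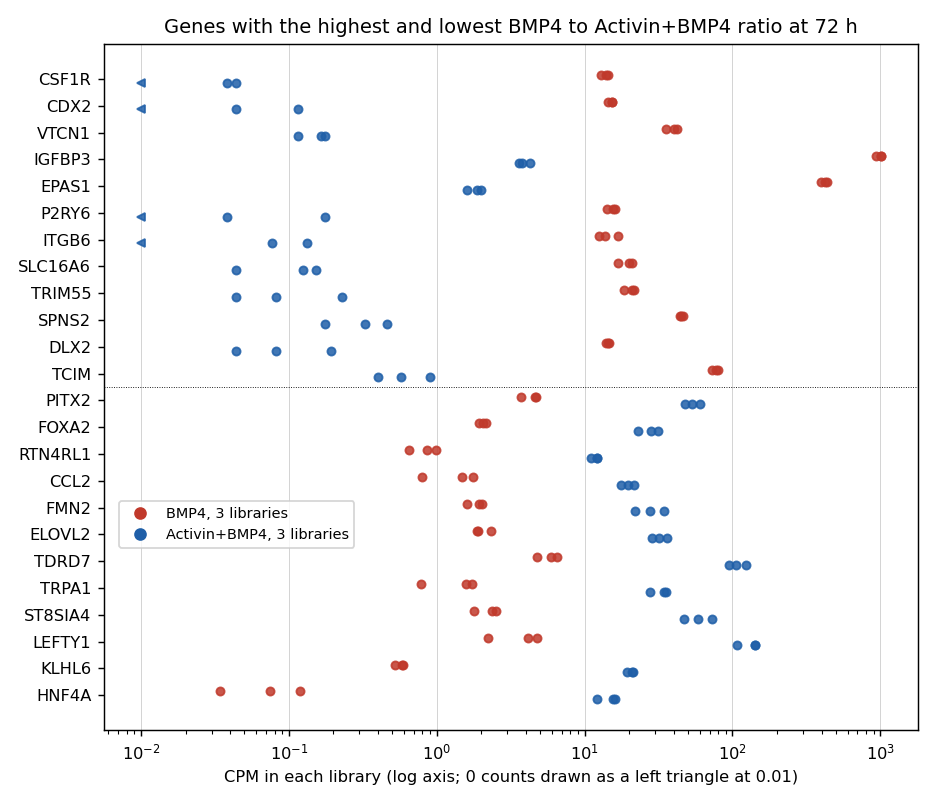
The level of each gene in each library at 72 h, in CPM on a log axis, for the called genes with the 12 highest (above the dotted line) and 12 lowest log2 fold changes that had at least 10 CPM in the higher group. Points are single libraries, red for BMP4 and blue for Activin+BMP4, and a triangle marks 0 counts. Only genes whose groups do not overlap could enter the 24, so the lack of overlap follows from the choice.

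Among the genes with the highest ratio to Activin+BMP4 and 10 CPM or more, IGFBP3 and EPAS1 were also abundant. IGFBP3, a secreted binding protein of insulin-like growth factors encoded at chr7:45912245-45921874, was measured at 933, 1017 and 1005 CPM with BMP4 and at 3.63, 3.79 and 4.26 CPM with Activin+BMP4. EPAS1, a hypoxia-inducible factor, was measured at 397, 421 and 436 CPM against 1.99, 1.61 and 1.88 CPM. The log2 fold change was 7.98 (SE 0.12) for IGFBP3 and 7.84 (SE 0.12) for EPAS1, while untreated cells held 12.1 and 3.97 CPM. CSF1R, the receptor of the macrophage growth factor CSF1, had 13.0, 13.9 and 14.3 CPM with BMP4 against a total of 2 counts in the Activin+BMP4 libraries. From 1111 counts against 2, the ratio was between 138 and 4130 (95% interval for counting error only). CSF1R lies at chr5:150053291-150113372 on the minus strand, and PDGFRB, its upstream neighbour on the same strand, was not called, with 36.0 CPM in the BMP4 group against 19.7 CPM. VTCN1, an immune checkpoint ligand of epithelia, had 35.5, 40 and 42.4 CPM against 0.177, 0.165 and 0.115 CPM. Further genes of this set were the integrin subunit ITGB6, the nucleotide receptor P2RY6, the sphingosine phosphate exporter SPNS2, the homeodomain factor DLX2, the transporter SLC16A6, the muscle ring finger protein TRIM55 and TCIM. Their log2 fold changes ran from 6.91 (TCIM) to 7.70 (P2RY6), and all 7 were under 1 CPM in each Activin+BMP4 library.

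At the other end, LEFTY1, a secreted NODAL inhibitor that NODAL signalling itself induces, was measured at 4.11, 4.79 and 2.22 CPM with BMP4 and at 141, 143 and 107 CPM with Activin+BMP4. Its groups were far apart, with a log2 fold change of -5.12 (SE 0.14). Its near-identical neighbour LEFTY2 was measured at 5.17, 6.51 and 4.68 CPM against 37.6, 39.0 and 30.5 CPM, and reads that fit both genes make the split between them uncertain. KLHL6, a ubiquitin ligase adaptor, stood at 0.567 ± 0.0383 CPM (SD, n = 3) with BMP4 against 20.4 ± 0.966 CPM with Activin+BMP4. The sialyltransferase ST8SIA4, the ion channel TRPA1, the tudor domain protein TDRD7, the fatty acid elongase ELOVL2, the actin nucleator FMN2, the chemokine CCL2 and RTN4RL1 had log2 fold changes from -4.75 (ST8SIA4) to -3.81 (RTN4RL1). TDRD7 was the most abundant of these 7 genes in Activin+BMP4, at 123, 105 and 94.2 CPM. Exons of several genes named here overlap those of other genes in GENCODE 29, among them TRPA1, FMN2, SLC16A6, SPNS2, ITGB6, LEFTY1 and LEFTY2. For ITGB6, LEFTY1 and LEFTY2 the other gene lies on the same strand. With the strand setting of the counting not given, reads in such exons could not be assigned to a single gene with certainty.

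Counts of called members in this and the later lists stand beside 5.2% of all genes tested called higher and 4.77% called lower. The definitive endoderm list had 24 of 25 members tested, of which 17 were lower with BMP4 and 7 were not called. Its median log2 fold change was -1.95 against -0.00 over all genes tested. Its summed level was 973 to 1029 CPM in the BMP4 libraries and 4890 to 5543 CPM in the Activin+BMP4 libraries. SOX17, the transcription factor most used to define this germ layer, was measured at 12.9, 16.2 and 14.1 CPM with BMP4 and at 197, 171 and 136 CPM with Activin+BMP4. It differed by -3.54 (SE 0.10) on the log2 scale, and every Activin+BMP4 library was well above every BMP4 library. FOXA2, a pioneer factor of endoderm and node, had 1.92, 2.17 and 2.06 CPM against 31.3, 27.9 and 23.0 CPM. CXCR4, the chemokine receptor used to sort endoderm, had 4.69, 5.91 and 5.32 CPM against 68.0, 55.4 and 42.9 CPM. Untreated cells held under 2 CPM of each of these 3 genes. HHEX, a factor of anterior endoderm, differed by -2.07 (SE 0.15) and PRDM1, a repressor shared by endoderm and germ cells, by -3.14 (SE 0.12). GATA6 and GATA4, zinc finger factors of endoderm and mesoderm, were lower with BMP4 but well expressed: GATA6 had 77.9 ± 5.66 CPM (SD, n = 3) with BMP4 against 255 ± 40.4 CPM with Activin+BMP4. GATA4 had 27.6 ± 4.22 CPM and 123 ± 11.8 CPM. The Activin+BMP4 replicate 1 had the highest value of the 6 libraries for SOX17, FOXA2, CXCR4, GATA6 and GATA4. Of the members that were not called, FOXA3 was at 15.4 CPM with BMP4 against 25.8 CPM with Activin+BMP4, OTX2 at 129 and 216 CPM and NODAL at 28.5 and 46.0 CPM.

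Within the visceral and yolk sac endoderm list 13 of 22 genes were tested, and 5 were lower with BMP4 and 8 not called. Apart from HNF4A, which is also in the definitive endoderm list, these were the apolipoproteins APOA1 and APOA2, the endocytic receptor CUBN and S100A14. Their levels with Activin+BMP4 were low, at 1.46 CPM for APOA1, 1.67 CPM for APOA2, 6.80 CPM for CUBN and 6.43 CPM for S100A14. AFP, the fetal serum protein made by yolk sac and fetal liver, had overlapping groups, at 0.496 CPM and 0.669 CPM. ALB had 3 counts over the BMP4 libraries and 9 over the Activin+BMP4 libraries, and TTR had 1 and 0.

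For Activin and NODAL targets all 18 members were tested; 10 were lower with BMP4 and 8 were not called, with a median log2 fold change of -1.35. CER1, a secreted antagonist of NODAL, BMP and WNT encoded at chr9:14719724-14722717, was the most abundant called gene on this side. It was measured at 238, 274 and 252 CPM with BMP4 and at 2904, 2749 and 2715 CPM with Activin+BMP4, against 4.13 CPM before treatment. Both groups were above the untreated level, and they differed by -3.45 (SE 0.09). TDGF1, the NODAL co-receptor, was measured at 315, 307 and 314 CPM against 763, 747 and 761 CPM. GSC, an organiser factor, differed by -3.31 (SE 0.12) and the feedback regulator PMEPA1 by -1.56 (SE 0.08). NODAL, SMAD7 and SKIL were not called: SMAD7 was at 29.6 CPM with BMP4 against 40.4 CPM with Activin+BMP4.

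Primitive streak genes divided. Of 18 members, all tested, 7 were higher with BMP4, 5 lower and 6 not called, and the list had a median log2 fold change of 0.23. TBXT, the T-box factor that marks the streak and the posterior mesoderm, was measured at 111, 116 and 109.9 CPM with BMP4 and at 30, 27.3 and 23.3 CPM with Activin+BMP4. Its groups did not overlap, and its log2 fold change was 2.07 (SE 0.10, edgeR adjusted p = 1.28e-22). EOMES, the T-box factor of the anterior streak and endoderm, was measured at 155, 176 and 172 CPM with BMP4 and at 533, 463 and 439.6 CPM with Activin+BMP4. It differed by -1.51 (SE 0.09), opposite in sign to TBXT. MIXL1, a homeodomain factor of the whole streak, was at 195 ± 10.5 CPM (SD, n = 3) and 354 ± 14.2 CPM and was not called, since it differed by less than 2-fold. The posterior streak genes CDX1 (log2 fold change 4.83, SE 0.16), WNT3A (3.31, SE 0.22), TBX6 (2.21, SE 0.13), MESP1 (1.94, SE 0.13) and MESP2 (1.66, SE 0.12) were higher with BMP4. EVX1 was higher by 1.01 (SE 0.17), and this call was lost when Activin+BMP4 replicate 2 or 3 or BMP4 replicate 2 was left out (0.92, 0.69 and 0.99) and with DESeq2 (0.99). The lower members were EOMES, GSC, LHX1 and the growth factors FGF17 and FGF8; FGF17 had 27.4, 28.8 and 30.6 CPM with BMP4 against 358, 313 and 299 CPM. Of the 18 genes 17 are also in another list.

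Early mesoderm genes were higher with BMP4 in most cases. In the nascent and paraxial list 20 of 21 members were tested, 13 were higher and 7 not called, with a median of 1.69. APLNR, the apelin receptor of nascent mesoderm, was among the most abundant called genes, at 589, 656 and 684 CPM with BMP4 and 266, 262 and 282 CPM with Activin+BMP4. It had been at 0.247 CPM before treatment, so both groups expressed it at 72 h. SNAI2, a repressor of epithelial genes, had 27.6, 27.3 and 32.9 CPM against 2.48, 2.23 and 2.30 CPM. The presomitic factor MSGN1 had 186 counts with BMP4 and 0 with Activin+BMP4, at least 55.8-fold higher on a floor of 3 counts over the group. The Notch ligand DLL1 differed by 3.24 (SE 0.19), the forkhead factors FOXF1 by 2.34 (SE 0.16) and FOXC1 by 1.28 (SE 0.12). KDR, the VEGF receptor of early mesoderm, was at 361 and 329.7 CPM and overlapped between groups, and PDGFRA was at 76.1 and 57.5 CPM and was not called.

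In the lateral plate and extraembryonic mesoderm list 24 of 25 members were tested, 16 were higher with BMP4, 3 lower and 5 not called, with a median of 2.10. HAND1, a helix-loop-helix factor of extraembryonic mesoderm, amnion and heart, was measured at 328, 336 and 361 CPM with BMP4 and at 20.0, 18.8 and 19.1 CPM with Activin+BMP4. The groups differed by 4.14 (SE 0.09). COL3A1, a fibrillar collagen of mesenchyme, had 54.7, 52.9 and 58.0 CPM against 0.575, 0.371 and 0.460 CPM, and LUM, a matrix proteoglycan, 59.9, 62.3 and 67.4 CPM against 2.03, 1.36 and 0.997 CPM. ISL1, a LIM homeodomain factor of second heart field and amnion, differed by 4.56 (SE 0.12), the cardiac actin ACTC1 by 3.67 (SE 0.12) and TBX3 by 1.71 (SE 0.08). HAND2 was at 2.28 CPM with BMP4 against 0.465 CPM with Activin+BMP4. The lower members included VIM, the intermediate filament protein of mesenchyme, and TBX20. VIM was measured at 208, 203 and 230.5 CPM with BMP4 and at 640.5, 591 and 540.4 CPM with Activin+BMP4. TBX20 differed by -1.03 (SE 0.17), and its call was lost without BMP4 replicate 3 (-0.95).

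All 22 amnion genes were tested, and 21 of them were higher with BMP4 and 1 was not called, with a median log2 fold change of 4.82. The summed level of the list was 2203 to 2363 CPM in the BMP4 libraries and 128 to 147 CPM in the Activin+BMP4 libraries. GABRP, a GABA receptor subunit used as an amnion marker, was measured at 311, 338 and 331 CPM with BMP4 and at 3.01, 3.09 and 2.65 CPM with Activin+BMP4. It differed by 6.81 (SE 0.11), and untreated cells held 1.94 CPM, close to the Activin+BMP4 level. TFAP2A, an AP-2 factor of surface ectoderm and amnion, had 68.6, 72.3 and 76.0 CPM against 4.86, 6.22 and 4.06 CPM, and WNT6 had 10.6, 11.4 and 7.86 CPM against 0.0885, 0.124 and 0 CPM. TP63, a p53 relative of stratified epithelia, had 684 counts with BMP4 against 1, a ratio of 110 to 24331 (95% interval for counting error). The counts for TFAP2B were 375 against 2, a ratio of 46.4 to 1397. DLX5 differed by 6.01 (SE 0.21), the keratin KRT7 by 4.45 (SE 0.18) and TFAP2C by 1.44 (SE 0.08). GATA3, a GATA factor shared by amnion and trophoblast, was at 66.4, 70.2 and 76.0 CPM against 37.8, 34.7 and 26.9 CPM. Its difference of 1.10 (SE 0.11) was under the 2-fold threshold without Activin+BMP4 replicate 3 (0.97). CLDN10, a claudin of the tight junction, differed by 1.10 (SE 0.10) and was under the threshold without BMP4 replicate 1 (0.98). MUC16 was the member not called, at 0.693 and 0.544 CPM with overlapping groups. Of the 22 genes 12 are in another list as well.

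Trophoblast is a cell type that shares several of these genes, and its list had 12 of 25 members tested. Of these 8 were higher with BMP4 and 2 lower. The higher genes included GATA2, GATA3, TFAP2C, KRT7, NRK, CYP19A1 and HLA-G, of which GATA3, TFAP2C and KRT7 are also amnion list genes. GATA2 was measured at 24.6, 28.4 and 29.8 CPM with BMP4 and 0.929, 1.24 and 1.3 CPM with Activin+BMP4. The placental aromatase CYP19A1 was at 0.850 CPM with BMP4 and HLA-G, a histocompatibility antigen of invasive trophoblast, at 1.86 CPM. Defining genes of differentiated trophoblast were near 0: the hormone gene CGA had 0 counts in all 6 libraries, CGB5 had 6 counts with BMP4 and 0 with Activin+BMP4, ELF5 7 and 0, and the fusion regulator GCM1 16 and 1. The lower genes were the retrovirus-derived ERVW-1, at 0.104 and 1.08 CPM, and PEG10. PEG10, an imprinted gene of placenta, was measured at 367, 399 and 434 CPM with BMP4 and at 1664, 1412 and 1131 CPM with Activin+BMP4. With PEG10 included, the summed level of the tested trophoblast genes was 636 to 735 CPM in the BMP4 libraries and 1185 to 1729 CPM in the others, the reverse of its count of calls.

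**Figure D2:**
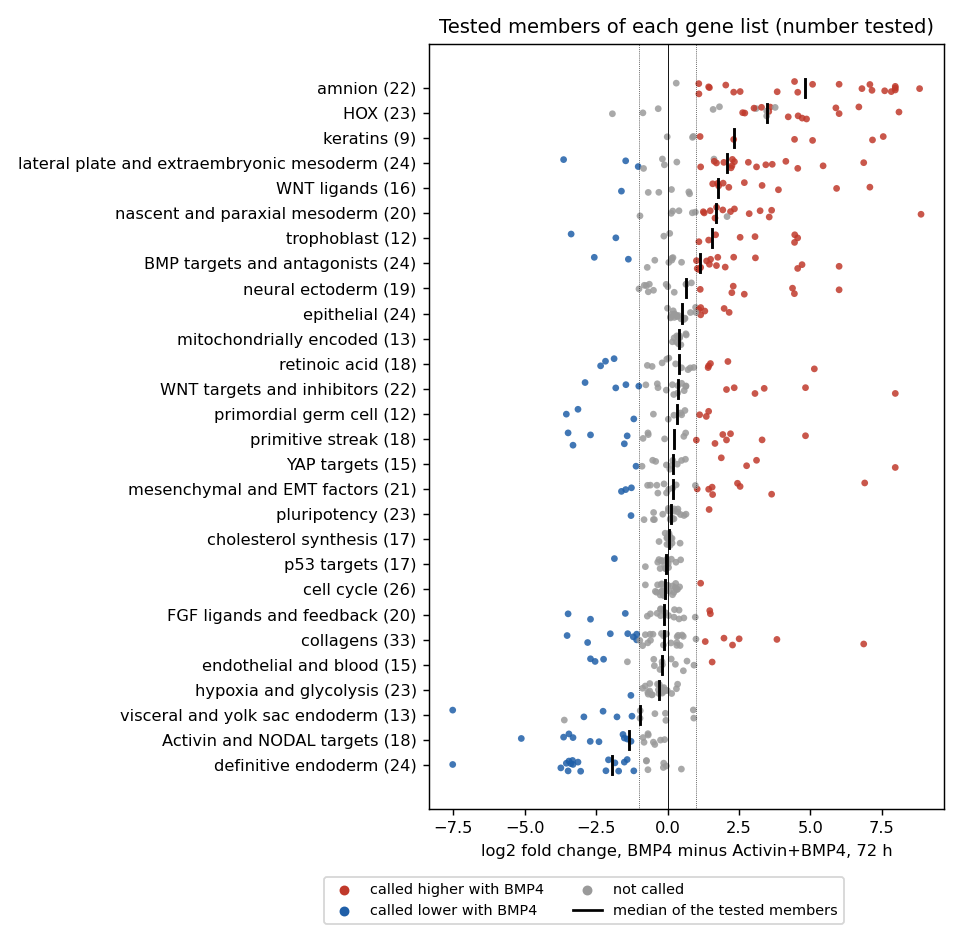
The log2 fold change at 72 h, BMP4 minus Activin+BMP4, of each tested member of 28 gene lists, ordered by median, with the number tested in brackets. Points are genes, red when called higher with BMP4, blue when called lower and grey when not called, and black bars are medians: the amnion list has the highest median (4.82) and the definitive endoderm list the lowest (-1.95).

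Homeobox genes of the HOX clusters, which pattern the trunk, and CDX factors, which act upstream of them, were found mainly in the BMP4 libraries. Of 39 HOX genes 23 passed the filter on low counts over the series, and 14 of these were higher with BMP4 and 9 not called. Their median log2 fold change was 3.48, or 3.16 with the genes at 0 counts in a group set to their lower bound. Genes enter such a list only when some group expresses them, so these numbers describe the tested members and not the clusters as a whole. HOXB6 was measured at 15.6, 16.1 and 15.8 CPM with BMP4 and at 0.310, 0.247 and 0.230 CPM with Activin+BMP4, and HOXB2 at 15.2, 15.3 and 15.6 CPM against 0.398, 0.742 and 0.422 CPM. Untreated libraries held 0 counts of either gene. HOXB5 had 272 counts with BMP4 against 2, a ratio of 33.5 to 1015 (95% interval for counting error). HOXB9, nearer the posterior end, was at 2.41 CPM with BMP4 against 0.391 CPM with Activin+BMP4 and differed by 2.63 (SE 0.30). HOXC13 had 240 counts against 3, a ratio of 24.3 to 351. The summed HOX level was 53.7 to 59.2 CPM in the BMP4 libraries and 2.19 to 3.27 CPM in the others. Many HOX genes overlap antisense transcripts or neighbours, which makes single values uncertain where the strand setting is not given. CDX1 stood at 14.4, 14.5 and 13.7 CPM with BMP4 against 0.575, 0.536 and 0.383 CPM.

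Genes of the BMP pathway itself were mostly higher with BMP4. Of 25 targets and antagonists 24 were tested, 15 were higher, 2 lower and 7 not called, with a median of 1.13. The homeobox genes MSX1 and MSX2, classical BMP targets, differed by 4.71 (SE 0.12) and 2.02 (SE 0.10); MSX2 was measured at 110.1, 115 and 116 CPM with BMP4 and at 32.8, 26.8 and 24.4 CPM with Activin+BMP4. The inhibitors NOG and BAMBI were higher by 3.08 (SE 0.21) and 1.47 (SE 0.08). ID genes, which encode helix-loop-helix inhibitors and respond directly to BMP, were uneven. ID2 and ID4 were higher by 1.37 (SE 0.08) and 1.51 (SE 0.09), whereas ID1 was at 230.3, 216 and 179 CPM with BMP4 and 182, 198 and 183 CPM with Activin+BMP4. For ID1 and ID3 the groups overlapped, with log2 fold changes of 0.15 (SE 0.08) and 0.16 (SE 0.07). The ligand transcripts moved in opposite directions: endogenous BMP4 was at 75.3, 78.4 and 79.0 CPM against 34.5, 35.4 and 34.1 CPM, and BMP2 at 53, 61.3 and 65.3 CPM against 170.1, 154 and 140.3 CPM. SMAD6, an inhibitory SMAD, was at 49.9 and 81.6 CPM and was not called.

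WNT ligands, secreted proteins that maintain the posterior streak, were higher with BMP4 for 10 of 16 tested members of 19, with 1 lower. WNT5A, a ligand of posterior mesoderm, was measured at 129, 149 and 151 CPM with BMP4 and at 39.9, 38.9 and 45.1 CPM with Activin+BMP4. Its relative WNT5B had 27.8, 27.2 and 24.2 CPM against 1.77, 1.77 and 1.80 CPM, and WNT8A, a streak ligand, 19.4, 26.4 and 24.1 CPM against 2.83, 4 and 3.91 CPM. WNT2B was lower with BMP4 (log2 fold change -1.61, SE 0.19), and WNT3, an inducer of the streak, was at 36.2 and 57.9 CPM and was not called. Of 22 tested WNT targets and inhibitors 6 were higher and 4 lower. The transcription factor LEF1 was higher by 3.06 (SE 0.12) and the receptor regulator RNF43 by 2.34 (SE 0.12), whereas AXIN2, a widely used WNT target, was at 43.9 and 55.4 CPM and was not called. The inhibitors DKK1, DKK4 and NOTUM were lower, with log2 fold changes of -1.46 (SE 0.17), -2.89 (SE 0.17) and -1.81 (SE 0.17). LGR5 had a log2 fold change of -1.0 (SE 0.15), and this call was lost without Activin+BMP4 replicate 1, BMP4 replicate 1 or BMP4 replicate 2 (-0.77, -0.89 and -0.98) and in several other settings of the model.

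FGF ligands and feedback genes had 20 members tested, of which 2 were higher with BMP4, 3 lower and 15 not called. Over all genes 5.2% were called higher and 4.77% lower. The higher ones were FGF19 and FGF18, of which FGF18 rested on 41 and 13 counts and lost its call without Activin+BMP4 replicate 1 or 3 or BMP4 replicate 3 (log2 fold changes of 1.19, 1.23 and 1.31). FGF17, FGF8 and FGF10 were the lower ones, FGF8 with 2.06, 1.57 and 1.79 CPM against 14.1, 12.4 and 9.09 CPM. The feedback genes of this pathway were not called, DUSP6 with a log2 fold change of 0.23 and SPRY4 with -0.07. In the retinoic acid list 5 of 18 genes were higher and 3 lower. The synthesising enzyme ALDH1A2 was higher with BMP4, at 5.69, 4.97 and 4.29 CPM against 0.0885, 0.0824 and 0.230 CPM. Its relatives ALDH1A3 and ALDH1A1 were lower, with log2 fold changes of -2.17 (SE 0.15) and -1.87 (SE 0.24). CYP26A1, the enzyme that degrades retinoic acid, was measured at 91.0, 80.2 and 83.8 CPM with BMP4 and at 489, 431 and 374 CPM with Activin+BMP4.

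Genes of the epithelial state were similar or higher with BMP4. Of 24 epithelial genes, all tested, 6 were higher and 18 not called, and for 20 the BMP4 libraries lay wholly above the others, against 20.5% of all genes. CDH1, the cadherin of epithelial junctions, was measured at 643, 671 and 669 CPM with BMP4 and at 292, 289 and 306 CPM with Activin+BMP4. CDH2, the cadherin of mesenchyme and neural tissue, had 183, 203 and 203 CPM against 691, 584 and 527 CPM. The log2 fold changes of CDH1 and CDH2 were of opposite sign, 1.16 (SE 0.04) and -1.61 (SE 0.08), with untreated levels of 409 and 132 CPM. The epithelial transcription factors GRHL1 and GRHL2 were higher by 2.16 (SE 0.10) and 1.31 (SE 0.05) and the claudin CLDN4 by 1.98 (SE 0.13), while EPCAM was at 301 and 152 CPM, just under the threshold. Of 15 keratins 9 were tested and 6 were higher with BMP4. KRT19 had 326, 323 and 334 CPM against 145, 146 and 154 CPM, whereas KRT8, the most abundant keratin here, was at 1085 and 579.7 CPM and was not called. KRT23 had 74 counts with BMP4 and 0 with Activin+BMP4, at least 22.2-fold higher.

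The mesenchymal list had 8 higher and 3 lower members of 21 tested. ZEB2, a repressor of CDH1, was higher by 1.44 (SE 0.16), CDH11, a mesenchymal cadherin, by 2.54 (SE 0.09) and TGFBI, a matrix adhesion protein, by 2.45 (SE 0.11). VIM, CDH2 and the smooth muscle protein TAGLN were lower, TAGLN with 57.4, 64.4 and 54.8 CPM against 168, 145 and 111 CPM. TWIST1 was at 1.18 and 1.05 CPM with overlapping groups. Collagens divided, with 6 of 33 higher and 7 lower, against 5.2% and 4.77% of all genes. COL5A2 was the most abundant called one and was measured at 126, 137 and 141 CPM with BMP4 and at 958, 939 and 915 CPM with Activin+BMP4. The basement membrane chain COL4A1 had 170.4, 194 and 202 CPM against 579.8, 496 and 410.3 CPM, whereas COL12A1 was higher with BMP4 by 3.83 (SE 0.19). COL1A1, the main chain of type I collagen, was at 66.3 and 46.5 CPM and was not called.

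Of the most abundant called genes, FN1, a mesenchymal list gene that encodes fibronectin, was measured at 2258, 2952 and 2619 CPM with BMP4 and at 1593, 1206 and 1011 CPM with Activin+BMP4. Its difference of 1.04 (SE 0.12) was near the threshold and was under it without Activin+BMP4 replicate 3 (0.90) or BMP4 replicate 2 (0.95). AHNAK, a large scaffold protein, had 856, 1441 and 1101 CPM against 356, 265 and 214 CPM, and both FN1 and AHNAK were lowest in BMP4 replicate 1 within their group. PRTG, a receptor-like protein of early mesoderm and neural tissue, differed by 2.14 (SE 0.17), TPM1, a tropomyosin, by 1.44 (SE 0.05) and LRRN1 by 1.26 (SE 0.04). On the Activin+BMP4 side, the protease inhibitors SERPINB9 and SERPINE2 were at 1297 and 1289 CPM against 544 and 583 CPM with BMP4. RHOBTB3 had a log2 fold change of -1.06 (SE 0.08) and was under the threshold without Activin+BMP4 replicate 1 (-0.98). Exons of CDH1, CDH2, PRTG, TPM1, LRRN1, PEG10, TDGF1 and RHOBTB3 overlap those of another gene in GENCODE 29, so a part of their counts could belong to it.

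Of 23 pluripotency genes tested 2 were called, a share near the 9.97% of all genes. For 11 of the 23 the BMP4 libraries lay wholly above the others and for 6 wholly below, against 20.5% and 22.7% of all genes. POU5F1, which encodes OCT4, was measured at 1026, 1004 and 1026 CPM with BMP4 and at 939, 999.6 and 1058 CPM with Activin+BMP4, against 1569.7 CPM in untreated cells. NANOG was at 89.2 ± 2.15 CPM (SD, n = 3) with BMP4 against 126 ± 2.68 CPM with Activin+BMP4, and SOX2 at 216 ± 21.6 CPM and 138 ± 28.2 CPM. The called members were KLF4, higher with BMP4 at 3.77 and 1.37 CPM, and TDGF1. Of 12 germ cell genes tested 3 were higher with BMP4 and 3 lower. SOX17, PRDM1 and KIT, a receptor of germ cells that endoderm also carries, were the lower ones. The higher ones were TFAP2C, DAZL and NANOS3. DAZL and NANOS3, which are more restricted to germ cells, were higher but under 3 CPM in every library; the DAZL call was lost without Activin+BMP4 replicate 2 (0.89).

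Neural genes were called higher with BMP4 for 7 of 19 tested members, against 5.2% of all genes, and 12 were not called. Of the 7, DLX5, is also an amnion list gene. SIX3, a forebrain factor, had 31.2, 21.5 and 23.5 CPM with BMP4 against 1.15, 1.28 and 1.23 CPM, and HESX1, another anterior factor, 15.2, 11.0 and 12.0 CPM against 2.74, 1.61 and 1.65 CPM. The neural genes PAX6 and SOX1 did not follow them: PAX6 was at 4.25 and 6.80 CPM and was not called, and SOX1 had 11 and 3 counts in all. Endothelial and blood genes were mostly low. CD34, CDH5 and SOX18 were lower with BMP4 and under 3 CPM in each library, the adhesion molecule PECAM1 had 14 and 12 counts, and RUNX1 was higher with BMP4, at 12.9, 14.8 and 14.1 CPM against 5.48, 4.86 and 3.87 CPM.

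For genes of growth and metabolism the counts of calls were set against the 9.97% of all genes. Of 26 cell cycle genes 1 was called. For 8 of the 26 the BMP4 libraries lay wholly above the others and for 10 wholly below, against 20.5% and 22.7% of all genes. The proliferation marker MKI67 was at 383 and 419 CPM and TOP2A at 637 and 628 CPM, each with overlapping groups. The called gene was the inhibitor CDKN2B, higher with BMP4 at 1.95 and 0.873 CPM. Of 23 hypoxia and glycolysis genes 1 was called, BNIP3, which was lower with BMP4 at 41.0 and 99.5 CPM. For 14 of the 23 the BMP4 libraries lay wholly below the others, against 22.7% of all genes; among them LDHA was at 385 and 705 CPM and the glucose transporter SLC2A3 at 902 and 1455 CPM. Of 17 p53 targets 1 was called, GDF15, which was lower with BMP4 at 0.422 and 1.53 CPM. Of 15 YAP targets 4 were higher and 1 lower: ANKRD1 had 59.3, 60.9 and 62.6 CPM with BMP4 against 21.0, 15.6 and 13.2 CPM, and CCN2 was lower at 23.8 and 51.2 CPM. Mitochondrially encoded genes had a median log2 fold change of 0.39, and their summed level ran from 5679 to 11410 CPM in the BMP4 libraries and from 5153 to 7786 CPM in the others; the part of this spread in the results was not tested.

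The difference at 72 h was then set against that at 48 h, with a test of the change itself. It had changed for 1051 genes (5.36% of those tested), 569 towards BMP4 (2.9%) and 482 away from it (2.46%). Among genes also called at 72 h, at 10 CPM or more in one group and without overlap between libraries there, those that moved most towards BMP4 were CSF1R, the WNT agonist RSPO3, CDX1, COL3A1, the protease PAPPA2 and SNAI2, and those that moved most away were the complement protein C5, LEFTY1, the neuronal protein STMN2, CLDN10, the guidance molecule SEMA3E and the hormone STC1. CDX1 was at 3.46 CPM with BMP4 against 4.62 CPM with Activin+BMP4 at 48 h, and had reached 14.2 and 0.498 CPM at 72 h. STC1 was at 16.9 and 26.5 CPM at 48 h and at 11.0 and 123 CPM at 72 h. CLDN10 had peaked with BMP4 at 36 h, at 419 CPM, and was at 340.4 CPM at 48 h and 22.8 CPM at 72 h, while it stayed between 8.40 and 30 CPM with Activin+BMP4. HNF4A was at 0.104 CPM with Activin+BMP4 at 48 h, 14.5 CPM at 72 h and 77.8 CPM at 96 h. It is not among the called changes: with 0 CPM in the BMP4 group at 48 h, its change was -3.03 (SE 15.19). Its difference at 48 h was not called either.

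Mesoderm genes accounted for several changes of sign between 48 h and 72 h. At 48 h itself 9.44% of genes were called, 4.98% higher and 4.46% lower with BMP4. In all 40 genes were called lower with BMP4 at 48 h and higher at 72 h, and 12 the other way. TBXT was at 55.7 CPM with BMP4 against 112 CPM with Activin+BMP4 at 48 h, when its difference was -1.0 (SE 0.09). At 72 h TBXT was at 112 and 26.9 CPM. Over the series its mean was highest at 36 h with Activin+BMP4, at 113 CPM, and at 72 h with BMP4. The change of its difference was 3.07 (SE 0.13). APLNR went from 23.3 and 259.8 CPM at 48 h to 643 and 269.9 CPM at 72 h, and its log2 fold change from -3.48 (SE 0.08) to 1.25 (SE 0.07). MESP1 (from -2.69 to 1.94), WNT5A (from -2.17 to 1.79), FOXF1 (from -3.54 to 2.34), TBX6, SNAI2, RSPO3 and ZEB2 turned in the same way. In the nascent and paraxial mesoderm list 11 of 20 tested genes were lower and 1 higher with BMP4 at 48 h, 13 higher and 7 not called at 72 h, and 18 higher and 2 not called at 96 h. In the primitive streak list the difference moved towards BMP4 between 48 h and 72 h for 11 of 18 genes and away for 1. At 96 h the background was 15.8% of genes called, 7.7% higher and 8.1% lower. The sign of SOX17 did not change: it differed by -4.43 (SE 0.12), -3.54 (SE 0.10) and -4.02 (SE 0.11) at 48, 72 and 96 h.

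**Figure D3:**
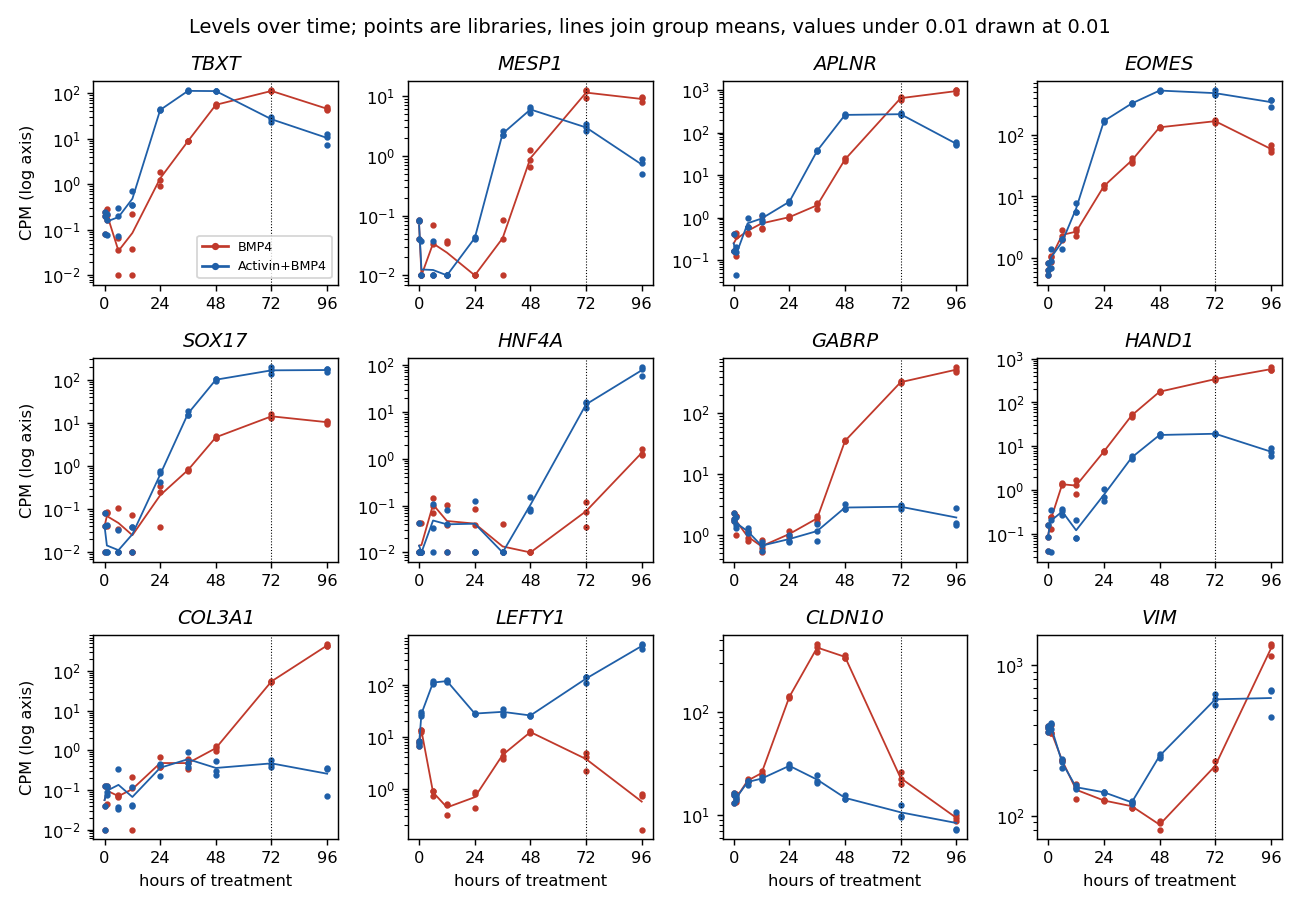
Levels of 12 genes over 96 h of treatment in CPM on a log axis, with red for BMP4 and blue for Activin+BMP4, points for libraries, lines for group means and a dotted line at 72 h. With BMP4, TBXT, MESP1 and APLNR pass the Activin+BMP4 level between 48 h and 72 h, whereas EOMES and SOX17 stay below it at 48, 72 and 96 h.

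Between 72 h and 96 h the difference changed for 1217 genes (6.21%), 659 towards BMP4 (3.36%) and 558 away (2.85%). Under the same limits on call, level and overlap at 72 h, the genes that moved most towards BMP4 included the transglutaminase TGM2, the annexin ANXA1, the basement membrane protein NID2, COL3A1 and the matrix link protein HAPLN1. Those that moved most away under these limits were LEFTY2, LEFTY1, IGFBP5, AMOT, FGF17 and SPARCL1. VIM turned from lower with BMP4, at 214 and 591 CPM, to higher, at 1281 and 603 CPM. IGFBP5 turned the other way: it was at 21.2 and 5.10 CPM at 72 h and at 86.3 and 500.5 CPM at 96 h. Such turns were seen for 14 genes towards BMP4 and 9 away. In the lateral plate and extraembryonic mesoderm list 18 of 24 tested genes moved towards BMP4 in this interval and 2 away. LEFTY1 reached 551 CPM and LEFTY2 700.4 CPM with Activin+BMP4 at 96 h, and AMOT, an angiomotin of the Hippo pathway, came to 102 and 54.8 CPM after 114 and 8.74 CPM at 72 h.

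A few genes had a signed difference farther towards its called side at 72 h than at 48 h and 96 h. Both changes of the difference were called in this way for 15 genes higher and 10 lower with BMP4, out of 19603 tested. Earlier times were not compared, and a gene of opposite sign at 48 h could differ by more in size then. Of the genes counted, 5 higher and 1 lower also had at least 10 CPM in the higher group and no overlap between libraries. The higher ones were SLC16A6, the matrix protein SPARCL1, CCBE1, the peptide transporter SLC15A1 and CLSTN2. SPARCL1 had 89.7, 89.4 and 90.0 CPM with BMP4 at 72 h against 2.26, 2.02 and 2.88 CPM. Its log2 fold change was 3.97 (SE 0.11) at 48 h, 5.22 (SE 0.11) at 72 h and 2.43 (SE 0.11) at 96 h.

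**Figure D4:**
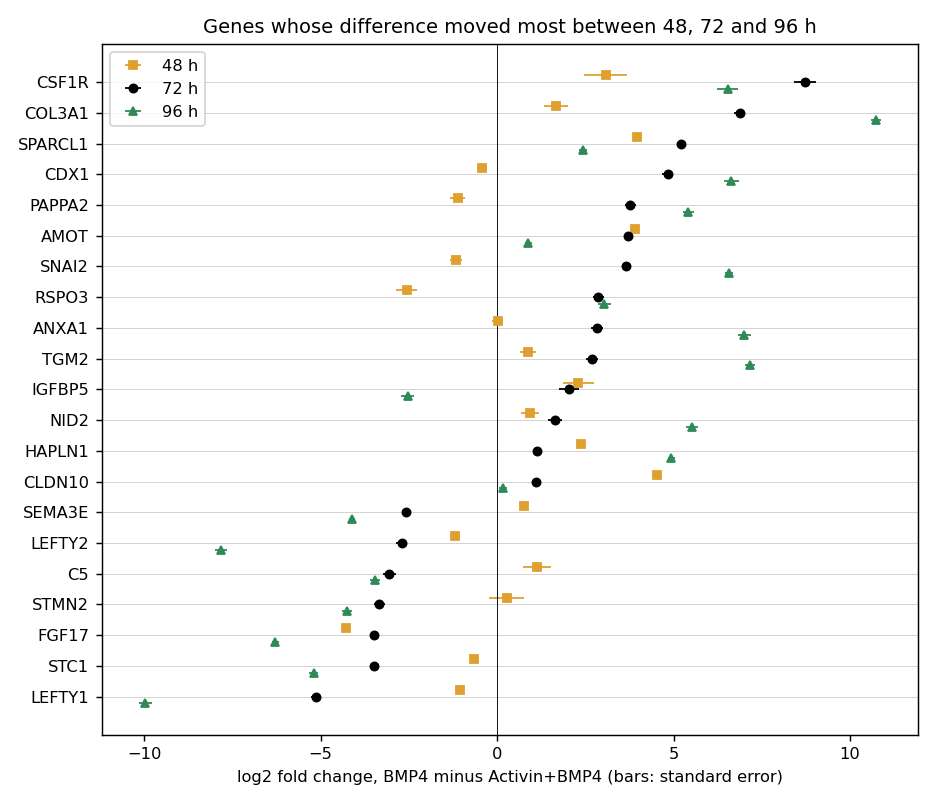
The log2 fold change of BMP4 over Activin+BMP4 at 48, 72 and 96 h, with its standard error, for genes called at 72 h with at least 10 CPM and no overlap whose difference changed most from 48 h or to 96 h, ordered by the value at 72 h. IGFBP5 changes sign between 72 h and 96 h, and LEFTY1 and COL3A1 move away from 0 at each step.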

How the data were processed

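The authors deposited a table of whole-number counts per gene (Ensembl IDs, 58051 rows) for 51 libraries. Per the submitters' processing notes, cutadapt 1.5, STAR 2.5.2a and RSEM 1.3.0 were used with build GRCh38; the annotation, the strand setting, and whether the counts are read counts or rounded estimates are not given in the sources used here. Per the labels' protocols, libraries were made from total RNA with KAPA RNA HyperPrep. Symbols were found for 98.1% of IDs, and loci come from GENCODE 29.

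Genes were kept by edgeR's filterByExpr (count 10, total 15), which left 19603 genes with 99.95% of the counts, and TMM scaling factors (0.966 to 1.03) were applied. One edgeR 4.0.16 quasi-likelihood model (R 4.3.3) was fitted to all 51 libraries with 1 mean for each of 17 groups. A call needed a Benjamini-Hochberg value under 0.05, adjusted over all genes tested, and a 2-fold difference. The standard error is the log2 fold change divided by the square root of F. Changes of the difference between times were tested as interaction contrasts; the 72 h libraries enter both, so these are not independent. Where a group had 0 counts, 3 counts for the whole group were taken as the floor, and ratios with few counts have exact 95% intervals for counting error only.

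The comparison, the gene lists and the rules were chosen with earlier results of these data known. Genes named across the whole table were chosen among the called genes. With 10 CPM or more in the group with more RNA and no overlap, the 12 highest and the 12 lowest ratios were taken. Under these limits the 6 largest changes in each direction for each interval were added. So were up to 6 in each direction whose signed difference at 72 h lay beyond those at 48 h and 96 h. The 8 most abundant called genes in each direction were taken without these limits. Clone-type symbols were left out and any list member could be named. PDGFRB was added after its values were seen, as the neighbour of CSF1R. The main edgeR model was also run on simulated counts, with the same spread for every gene and changes put only into well-expressed genes. Its outcome is not used here, and the alternative models were not simulated. Alternatives were other scaling, filters, DESeq2 1.42.0, the compared groups alone, a replicate block and leaving out each library. Some genes that these rules select are not reported here.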

Additional observations from a re-analysis of the deposited data

Results flagged for a closer look

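The difference between BMP4 and Activin+BMP4 was not the same at 48, 72 and 96 h, and each value here is a tested change of the log2 fold change between times in edgeR's quasi-likelihood model with Benjamini-Hochberg adjustment. From 48 h to 72 h it changed for 1051 genes. Genes are named only where they were also called at 72 h at 10 CPM or more in one group and without overlap; less abundant genes had larger changes. Of the named genes those that moved most towards BMP4 were CSF1R (change 5.65, SE 1.39), RSPO3 (5.44, SE 0.32), CDX1 (5.25, SE 0.22), COL3A1 (5.20, SE 0.56), PAPPA2 (4.89, SE 0.27) and SNAI2 (4.80, SE 0.20). With Activin+BMP4, CSF1R was at 0.0643 CPM at 48 h and had 2 counts at 72 h, so its rank is uncertain. RSPO3 went from 0.581 CPM with BMP4 against 3.44 CPM with Activin+BMP4 to 19.1 and 2.59 CPM. Within the same limits those that moved most away were C5 (-4.17), LEFTY1 (-4.06), STMN2 (-3.61), CLDN10 (-3.44), SEMA3E (-3.32) and STC1 (-2.84). C5 went from 1.21 and 0.552 CPM to 1.96 and 16.3 CPM, and SEMA3E from 29.9 and 17.7 CPM to 9.29 and 55.2 CPM.

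From 72 h to 96 h the difference changed for 1217 genes. The values towards BMP4 included 4.49 for TGM2, 4.18 for ANXA1, 3.88 for NID2, 3.86 for COL3A1 and 3.81 for HAPLN1. TGM2 went from 12.9 and 2.01 CPM to 203 and 1.40 CPM, and HAPLN1 from 142 and 64.9 CPM to 841 and 27.4 CPM. The values away from BMP4 were -5.11 for LEFTY2, -4.84 for LEFTY1, -4.58 for IGFBP5, -2.82 for AMOT, -2.80 for FGF17 and -2.80 for SPARCL1. FGF17 went from 28.9 and 323 CPM to 7.87 and 611 CPM. In this interval SPARCL1 moved away from BMP4 but remained higher with it, at 21.2 and 3.94 CPM.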

How the results depend on the processing

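The count of called genes at 72 h was 1955, and it was 1955 with DESeq2-style size factors in edgeR, 1952 with no scaling factors, 2024 with no filter, 1569 with a stricter filter, 1767 with DESeq2, 1597 with only the groups compared, 1888 with the earlier quasi-likelihood method (chosen after seeing the data) and between 1927 and 1989 with 1 library left out. All of these are within 1.5 times of 1955, and the leave-one-out fits shared 1750 to 1777 genes with it. The change from 48 h was called for 957 to 1171 genes and the change to 96 h for 1159 to 1357 genes with 1 library left out. Same-numbered replicates did not deviate together at 72 h (correlations of -0.132, -0.113 and -0.042, against -0.093 to 0.201 for other numbers). Such correlations were not taken at other times, and whether a number stands for a shared culture or batch was not tested. With the replicate block 1948 genes were called, 1935 of them shared, and 1059 and 1215 for the changes. Of 868 values for 62 named genes under these alternatives 864 kept their direction and call, and 4 were under the threshold: FN1 in 2 settings, CLDN10 and RHOBTB3. These genes were chosen in the same data for large differences, large changes or high levels. Their count therefore does not speak for the other called genes. LGR5 lost its call with the replicate block (-0.98), with no scaling factors (-0.99) and, at a value that rounds to -1.0, with the stricter filter and with only the groups compared; EVX1 lost it with DESeq2 (0.99). Between 4 and 9 list genes lost their call with each library left out. Among these, HOXA10, WNT10B, GREM1, FGF18, COL4A3 and DCN rest on few counts or values near the threshold. Depth limits the ratios of genes with 1 to 3 counts in a group, such as TP63 and HOXB5, whose intervals are wide.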
